A study of Mus musculus with 4 samples.

Results

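The genes described here are 54 genes of DNA replication and mitosis in cultured mouse chondrocytes, the cells that build and maintain cartilage. They were taken by gene symbol from a table of 25239 genes, and all 54 were present and passed the filter on low counts, which left 15522 genes for testing. The list holds 25 genes of S phase entry, DNA replication, nucleotide supply and DNA repair, called the replication genes below. The other 29 act in G2 and mitosis and are called the mitosis genes. RNA-seq of poly(A) RNA was available from 4 libraries of primary chondrocytes. The 2 control libraries came from mice with the genotype Tiki2 fl/fl, and the 2 conditional knockout (cKO) libraries from Tiki2 fl/fl mice that also carry Col2a1-Cre/ERT, a Cre that 4-hydroxytamoxifen activates and that Col2a1 sequences drive in cartilage cells. Both alleles were floxed and 4-hydroxytamoxifen was given in all 4 cultures, so the groups differ by the Cre alone as labelled, and effects of active Cre and of losing Tiki2 cannot be told apart. Tiki2 (gene symbol Trabd2b) is a membrane protease that inactivates Wnt proteins. The sources used here give no strain, age or number of animals per library, and no label says that replicates came from separate animals. The 2 controls differ in sex by their counts of Xist and Ddx3y, given below, so they were not repeats of the same sample. For the 2 cKO libraries the spread may be technical. The p-values measure the spread between these libraries.

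A cell that commits to division passes from G1 into S phase, where replication starts from many origins and the genome is copied, and then through G2 into mitosis, where the copies are pulled apart. Genes of S phase are transcribed as a wave under E2F factors, and genes of G2 and mitosis follow as a later wave under FOXM1, B-MYB and NF-Y, so the level of each set in a culture follows how many cells are in that part of the cycle. Articular chondrocytes divide rarely in adult cartilage, but they re-enter the cycle when they are isolated and grown on plastic. In RNA from a whole culture, fewer dividing cells and less RNA per dividing cell cannot be told apart.

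Total counts were 66750140 to 78873054 per library. The deleted gene served as a check of the labels: Trabd2b had 28513 and 31314 counts in control and 22643 and 29473 in cKO libraries, a log2 fold change of -0.38 ± 0.11 (SE; adjusted p = 0.15 by edgeR). That is 436 and 415 CPM in controls, against 292 and 363 CPM in cKO, with no overlap, a layout that 24.9% of all genes had. By DESeq2 the adjusted p was 0.0074, and by edgeR it was 0.027 without cKO replicate 2. The log2 fold change ran from -0.54 without cKO replicate 2 to -0.23 without cKO replicate 1. The table counts the whole gene, so the floxed part was not read on its own. This check therefore settles neither the labels nor how far Tiki2 was lost. Control replicate 1 stood apart in sex, with 112185 counts of Xist and 0 of the Y-linked Ddx3y, against 36 to 171 and 11073 to 12085 in the other 3 libraries. All 8 chondrocyte markers were detected, with 7 passing the test for genotype, where 1.3% of all genes did. Their summed level was 25857 and 30335 CPM (counts scaled to library size) in controls and 15475 and 11631 CPM in cKO. The 7 fibroblast markers, 2 of which passed beside the same 1.3% of all genes, summed to 5202 and 5181 CPM in controls. They summed to 6904 and 7573 CPM in cKO. The 8 adipocyte markers, of which Lep was at 0 in all libraries and none passed, summed to 206 and 209 CPM in controls, against 316 and 517 CPM in cKO. Leukocyte markers summed to 12.8 to 18.5 CPM, muscle markers to 2.08 to 22.4 CPM with Pax7 at 0, and the 5 endothelial and 4 erythroid markers were each under 1 CPM in every library. Osteoclast markers summed to 469 and 460 CPM in controls, against 430 and 392 CPM in cKO, with Ocstamp and Dcstamp under 1 CPM throughout. What part these differences have in the results below was not tested.

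No replication or mitosis gene passed the test for genotype, yet nearly all leaned the same way. Of the 54, 0 had an adjusted p under 0.05 (edgeR quasi-likelihood test, Benjamini-Hochberg adjustment over all 15522 genes), where 1.3% of all genes did, and the smallest adjusted p was 0.10, for Kif23. An unadjusted edgeR p under 0.05 with a lower level in cKO was found for 8 of 25 replication genes and 6 of 29 mitosis genes, against 8.88% of all genes, and no member had one with a higher level, against 8.36%. With library sizes alone the lower counts were 4 of 25 and 4 of 29, against 5.74%. DESeq2 called 2 replication genes and 1 mitosis gene lower, against 4.58% of all genes, and limma-voom called 0, against 2.15%. The log2 fold change was below 0 for 23 of 25 replication and 28 of 29 mitosis genes with TMM scaling, and for 19 and 27 with library sizes alone, against 49.6% and 37.4% of all genes. The median was -0.21 for the replication genes and -0.22 for the mitosis genes, beside 0.00 for all genes. With library sizes alone all 3 medians moved up together, to -0.14, -0.15 and 0.07. Members of 1 pathway share their libraries and vary together, so these counts describe the lists and do not test them.

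**Figure D1:**
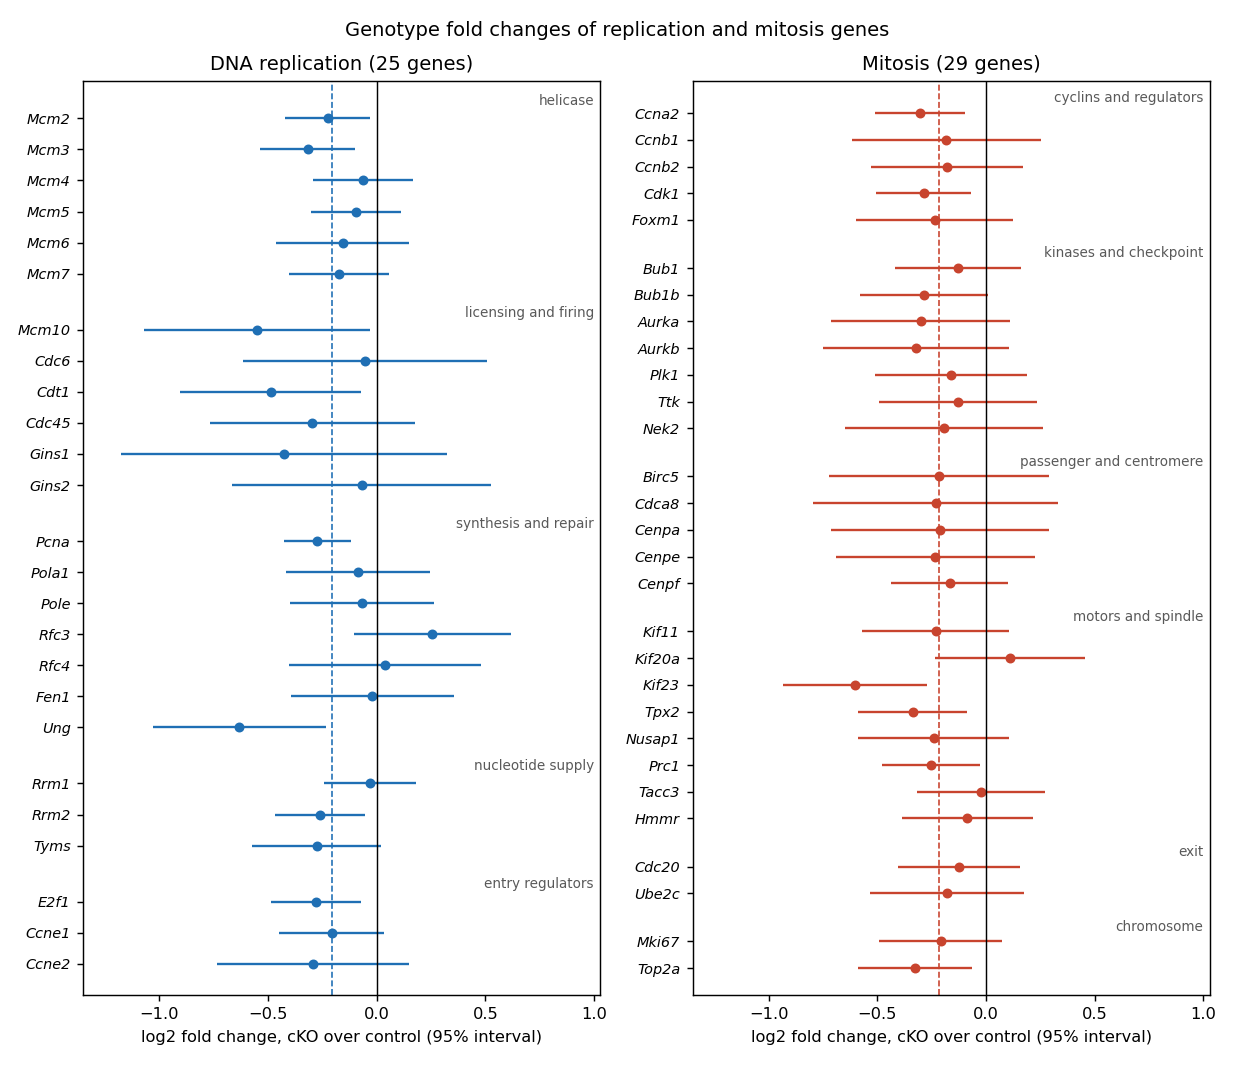
Log2 fold change of cKO over control for each gene (point) with its 95% interval from the edgeR fit (line), with 25 replication genes at left and 29 mitosis genes at right, grouped by role; the dashed line is the list median. All but 3 points lie left of 0, and the list medians, -0.21 and -0.22, nearly coincide.

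In the fit of all libraries these differences were small, and a 2-fold fall was excluded for most members. Single-gene log2 fold changes ran from -0.63 for Ung to 0.26 for Rfc3. The 95% interval excluded a 2-fold fall for 51 of 54 genes, against 12555 of all 15522 genes tested. The exceptions were Mcm10, Gins1 and Ung. A 2-fold rise was excluded for all 54, against 12337 of 15522. A 1.5-fold fall was excluded for 33 of 54, a smaller share than the 10805 of 15522 among all genes. The typical interval reached 0.34 on the log2 scale to either side (median of the 54), which is wider than the list medians themselves.

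The 2 sets differ in the letters of their promoters, which is shown here because such motifs are known from the 2 waves described above. RefSeq promoter sequences (build GRCm38.p6, 250 bases before and 50 after the start) were found for 44 of the 54 genes, 20 replication and 24 mitosis genes. Without an entry were Mcm4, Gins1, Gins2, Pole, Ccne2, Ccna2, Foxm1, Aurkb, Kif20a and Tpx2. Searched on both strands were the E2F motif, spelled TTTCCCGC, TTTCGCGC, TTTGCCGC or TTTGGCGC, the cell cycle genes homology region (CHR), spelled TTTGAA or TTCGAA, and the NF-Y box CCAAT. An E2F match was present in 8 of 20 replication promoters (40%) and 1 of 24 mitosis promoters (4.17%), against 2.26% of 32851 promoters of the same length. A CHR match was present in 18 of 24 mitosis promoters (75%) and 5 of 20 replication promoters (25%), against 19.2% of all. CCAAT was found in 21 of 24 mitosis and 12 of 20 replication promoters, against 37.4% of all, and each of the 18 mitosis promoters with a CHR match also held CCAAT, a pair present in 7.52% of all promoters. In the 250 bases before the start alone, a CHR match was present in 8 of 24 mitosis promoters (33.3%) and 5 of 20 replication promoters (25%), against 17.1% of all, so the sets differed little in CHR there. An E2F match was present there in 6 of 20 replication promoters (30%) and 1 of 24 mitosis promoters (4.17%), against 1.86% of all. Most promoters of either set thus lacked the motif of their set in these upstream bases. A match describes the letters and is not evidence of binding in these cells.

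The upstream bases of 4 promoters show these letters in place. They are from 2 replication genes with E2F matches in capitals, Mcm6 (chr1:128359706-128359955, minus strand) and Mcm5 (chr8:75109259-75109508, plus strand), and from 2 mitosis genes with CHR matches in capitals, Cdk1 (chr10:69352939-69353162, minus strand) and Top2a (chr11:99024190-99024439, minus strand). Each is read 5′ to 3′ on the gene's own strand, on mm10, the build called GRCm38 by RefSeq, and bases that any GENCODE M21 exon covers were left out. The 2 genes shown of each set had the lowest unadjusted edgeR p among genes whose stretch, cut in this way, held a match of their set. In Mcm6 and in Mcm5, 2 matches on opposite strands overlap to form 1 run, and Mcm6 has another match nearer the start.
Mcm6: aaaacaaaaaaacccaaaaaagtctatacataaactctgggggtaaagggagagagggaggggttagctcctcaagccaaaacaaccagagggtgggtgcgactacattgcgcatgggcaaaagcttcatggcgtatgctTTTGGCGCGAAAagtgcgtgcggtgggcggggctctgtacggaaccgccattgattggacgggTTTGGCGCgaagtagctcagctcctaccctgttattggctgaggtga
Mcm5: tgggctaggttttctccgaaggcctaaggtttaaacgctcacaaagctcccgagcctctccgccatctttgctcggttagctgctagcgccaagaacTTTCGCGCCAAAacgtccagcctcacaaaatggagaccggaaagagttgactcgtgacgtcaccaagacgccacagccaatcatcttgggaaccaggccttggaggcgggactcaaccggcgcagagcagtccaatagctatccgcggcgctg
Cdk1: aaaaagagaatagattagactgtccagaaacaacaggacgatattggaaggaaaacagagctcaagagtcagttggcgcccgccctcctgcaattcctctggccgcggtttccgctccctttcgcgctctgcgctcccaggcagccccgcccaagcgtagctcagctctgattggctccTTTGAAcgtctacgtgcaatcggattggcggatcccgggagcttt
Top2a: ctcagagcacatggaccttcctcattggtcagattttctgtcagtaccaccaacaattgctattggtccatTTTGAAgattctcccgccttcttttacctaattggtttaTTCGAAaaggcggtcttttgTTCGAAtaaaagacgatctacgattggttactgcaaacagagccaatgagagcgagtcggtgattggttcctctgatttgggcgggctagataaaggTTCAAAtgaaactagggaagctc
The Top2a stretch holds 4 CHR matches and 6 CCAAT boxes, read on either strand. The Cdk1 stretch holds 3 CCAAT boxes, 1 CHR match and, in lower case, the E2F match that makes Cdk1 the single mitosis promoter with one. The 250 bases before the Cdk1 start hold 2 CHR matches, 1 of them in the bases left out here.

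Mcm2 to Mcm7 encode the subunits of the ring-shaped helicase that unwinds DNA at the fork, and all 6 had log2 fold changes below 0 with TMM scaling, from -0.32 for Mcm3 to -0.06 for Mcm4. With library sizes alone Mcm4 moved to 0.0029. Mcm3 (chromosome 1, 20802968 to 20820312) had 40.7 and 45.9 CPM in controls, against 33.8 and 35.7 CPM in cKO, a log2 fold change of -0.32 ± 0.09 (SE; adjusted p = 0.15 by edgeR). Both cKO libraries were below both controls. Mcm7, the subunit with the most reads, had 45.9 and 52.7 CPM in controls, against 41.7 and 45.7 CPM in cKO, a log2 fold change of -0.17 ± 0.09. Its groups nearly touched, since control replicate 1 and cKO replicate 2 were level. Mcm2 was at -0.23, Mcm7 at -0.17, Mcm6 at -0.16 and Mcm5 at -0.09, and Mcm6 and Mcm4 overlapped between groups. Mcm7 was at -0.07 and Mcm5 at -0.05 without control replicate 2.

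The 6 genes that load and fire the helicase had a median log2 fold change of -0.36, the lowest of any role. Cdt1, which brings the helicase to origins in G1, had 15.3 and 12.5 CPM in controls, against 8.69 and 11.1 CPM in cKO, a log2 fold change of -0.49 ± 0.17 (adjusted p = 0.22 by edgeR). The groups did not overlap, and control replicate 1 was the highest library. Mcm10, which helps activate the helicase, was at -0.55 ± 0.21, and it did not overlap between groups either, although its cKO libraries were far apart, at 5.53 and 8.29 CPM. The firing factors Cdc45, Gins1 and Gins2 were highest in control replicate 2, with log2 fold changes of -0.30, -0.43 and -0.07. These 3 were at -0.03, -0.14 and 0.32 without control replicate 2. Without cKO replicate 1, Mcm10 was at -0.29 and Cdt1 at -0.32. Cdc6, which loads the helicase with Cdt1, was at -0.05 ± 0.23 with TMM scaling and at 0.01 with library sizes alone. The exons of Gins2 share 2758 bases with Gse1 on the opposite strand, and the sources used here do not state whether counting used strand, so its value is uncertain.

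Among genes that copy and repair DNA, Pcna, the sliding clamp that holds polymerases on the template, had the narrowest interval of all members. It (chromosome 2, 132249162 to 132253314) had 94.4 and 95.5 CPM in controls, against 75.3 and 81.9 CPM in cKO. Its log2 fold change was -0.27 ± 0.06 (SE), with an edgeR adjusted p of 0.11 and a DESeq2 adjusted p of 0.021. The controls agreed closely and both cKO libraries lay below them. Ung, which removes uracil from DNA, had 11.4 and 10.5 CPM in controls, against 7.87 and 6.28 CPM in cKO, the lowest fold change of the list at -0.63 ± 0.16 (adjusted p = 0.13 by edgeR, DESeq2 adjusted p = 0.033). It is a DNA repair enzyme. Rfc3, a subunit of the loader that places Pcna on DNA, was the single member with both cKO libraries above both controls. It had 17.8 and 23.9 CPM in controls, against 24.1 and 25.8 CPM in cKO, a log2 fold change of 0.26 ± 0.15 (adjusted p = 0.45 by edgeR). Its gap rested on control replicate 1, without which the log2 fold change was 0.06. The loader subunit Rfc4, the flap nuclease Fen1 and the polymerase subunits Pola1 and Pole lay between -0.09 and 0.04, and all 4 overlapped between groups. Fen1 was at 0.05 with library sizes alone, and Pola1 is the 1 member on the X chromosome.

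Fold changes varied among the genes of nucleotide supply, and no difference between them was tested. Rrm2, the S phase-regulated subunit of ribonucleotide reductase, had 88.7 and 97.97 CPM in controls, against 72.8 and 82.8 CPM in cKO, a log2 fold change of -0.26 ± 0.09 (adjusted p = 0.19 by edgeR). Rrm1, the partner subunit that is present through the cycle, had 80.5 and 94.0 CPM in controls, against 82.6 and 88.2 CPM in cKO, with both cKO libraries between the controls. Its log2 fold change was -0.03 ± 0.09, and 0.03 with library sizes alone. Tyms, which makes thymidylate, was at -0.28 ± 0.12, and at -0.16 without control replicate 2. Of the regulators of entry into S phase, the transcription factor E2f1 had 32.5 and 31.9 CPM in controls, against 27.6 and 25.6 CPM in cKO, a log2 fold change of -0.28 ± 0.09 (adjusted p = 0.18 by edgeR) with no overlap. The cyclin E genes Ccne1 and Ccne2, which drive entry with Cdk2, were at -0.21 and -0.29, and both were higher in control replicate 1 than in control replicate 2. Without control replicate 1 they were at -0.12 and -0.09.

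The cyclins and regulators of mitosis had 5 of 5 fold changes below 0 with either scaling, from -0.30 to -0.18 with TMM. Ccna2, cyclin A, had 43.3 and 47.4 CPM in controls, against 35.5 and 38.1 CPM in cKO, a log2 fold change of -0.30 ± 0.09 (adjusted p = 0.15 by edgeR). Cdk1 (chromosome 10, 69335146 to 69352938), the kinase that drives mitosis, was at -0.29 ± 0.09 (adjusted p = 0.18 by edgeR). For both genes each cKO library was below each control. Ccnb1 and Ccnb2, the cyclin B partners of Cdk1, and Foxm1, the transcription factor of the mitotic wave, were at -0.18, -0.18 and -0.24. In these 3 genes control replicate 2 was the highest library and control replicate 1 lay between the cKO libraries. Ccnb1 had 28.8 and 41.5 CPM in controls, against 28.5 and 33.4 CPM in cKO. Ccnb1 was at 0.10, Ccnb2 at 0.0094 and Foxm1 at -0.0077 without control replicate 2.

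Among 7 mitotic kinases and spindle checkpoint genes, all fold changes were below 0, with a median log2 fold change of -0.20. Plk1, a kinase of mitotic entry and spindle assembly, had 26.9 and 36.2 CPM in controls, against 28.0 and 28.5 CPM in cKO, a log2 fold change of -0.16 ± 0.14 (adjusted p = 0.64 by edgeR). Control replicate 1 was the lowest of the 4 libraries and control replicate 2 the highest. Bub1b, a checkpoint protein that delays anaphase, had 25.7 and 28.8 CPM in controls, against 20.3 and 24.4 CPM in cKO. Its log2 fold change was -0.29 ± 0.12 (adjusted p = 0.30 by edgeR). It was the 1 gene of the 7 in its role without overlap, where 24.9% of all genes had both cKO libraries below both controls. Aurka and Aurkb, the Aurora kinases of centrosome and centromere, were at -0.30 and -0.32, and Bub1, Ttk and Nek2 at -0.13, -0.13 and -0.20. Without control replicate 2, Aurka was at -0.02, Aurkb at -0.06, Bub1 at -0.02, Plk1 at 0.07 and Nek2 at 0.12, while Bub1b was at -0.20 and Ttk at -0.19.

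No chromosomal passenger or centromere gene separated the groups. Among all genes, 24.9% had both cKO libraries below both controls, and 24.9% had both above. Cenpf, a kinetochore protein, had 43.3 and 53.4 CPM in controls, against 41.8 and 44.3 CPM in cKO, a log2 fold change of -0.17 ± 0.11 (adjusted p = 0.51 by edgeR). Birc5 (survivin) and Cdca8 (borealin), subunits of the passenger complex, were at -0.22 and -0.23, the centromeric histone Cenpa at -0.21, and the kinetochore motor Cenpe at -0.23. For Cdca8 the controls were 14.1 and 22.3 CPM and the cKO libraries 17.5 and 13.5 CPM, so the controls differed by more than the group means did. With control replicate 2 left out, Cenpf was at -0.0077 and the other 4 genes were between 0.09 and 0.14.

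Kif23, a kinesin of the central spindle that is needed for cytokinesis, had the largest fold change of the mitosis genes. It (chromosome 9, 61915905 to 61946774) had 21.3 and 25.5 CPM in controls, against 16.9 and 13.9 CPM in cKO, a log2 fold change of -0.60 ± 0.14 (adjusted p = 0.10 by edgeR, DESeq2 adjusted p = 0.0077). It was also the 1 member that passed edgeR in a fit with a library left out, at an adjusted p of 0.0427 without cKO replicate 1, a fit that called 4.9% of all genes. Prc1, which bundles the central spindle that Kif23 binds, had 62.0 and 74.4 CPM in controls, against 56.6 and 57.8 CPM in cKO, a log2 fold change of -0.25 ± 0.09 (adjusted p = 0.24 by edgeR). Tpx2, which nucleates spindle microtubules, was at -0.34 ± 0.10, and it and Prc1 did not overlap between groups. Kif20a, another central spindle kinesin, was the single mitosis gene above 0, at 0.11 ± 0.14. Its exons share 1271 bases with Cdc23 on the opposite strand, so its value is uncertain for the reason given for Gins2. The motor Kif11 and the spindle proteins Nusap1, Hmmr and Tacc3 were at -0.23, -0.24, -0.09 and -0.02, and Tacc3 was at 0.04 with library sizes alone. Without control replicate 2, Tpx2 was at -0.18, Prc1 at -0.12, Kif11 at -0.04, Nusap1 at -0.05, Hmmr at 0.06, Tacc3 at 0.15 and Kif20a at 0.32.

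Of the genes of mitotic exit, Cdc20, which activates the anaphase-promoting complex, had 32.2 and 38.7 CPM in controls, against 34.3 and 30.8 CPM in cKO, a log2 fold change of -0.12 ± 0.12 (adjusted p = 0.66 by edgeR). Ube2c, the ubiquitin-conjugating enzyme of that complex, had 24.2 and 30.3 CPM in controls, against 21.7 and 26.4 CPM in cKO, a log2 fold change of -0.18 ± 0.15 (adjusted p = 0.60 by edgeR). Both genes overlapped between groups. Mki67, the proliferation marker that coats mitotic chromosomes, had 154.6 and 193 CPM in controls, against 141 and 159.6 CPM in cKO, a log2 fold change of -0.21 ± 0.12 (adjusted p = 0.43 by edgeR). The lower control fell between the cKO libraries. Top2a, which untangles the copied DNA, had 126 and 157 CPM in controls, against 109 and 116 CPM in cKO, a log2 fold change of -0.33 ± 0.11 (adjusted p = 0.20 by edgeR) with no overlap. Without control replicate 2, Top2a was at -0.16, Mki67 at -0.04, Ube2c at -0.0075 and Cdc20 at 0.02.

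Per kilobase of exon, the highest levels were those of Pcna and Rrm2, at 36.2 and 30.9 CPM per kb (mean of 4 libraries), followed by Cdc20 at 18.2 and Mki67 at 16.1 CPM per kb. Mcm10 was the lowest, at 1.11 CPM per kb. The median level was 5.66 CPM per kb for replication genes and 5.81 for mitosis genes. Exons of 15 of the 54 genes share bases with another gene in the table, 14 of them with a gene on the opposite strand, so these values may hold reads of the neighbour. Among them are Prc1 (911 bases shared with Rccd1), Ccna2 (510 with Exosc9) and Ube2c, which shares 592 bases with the muscle gene Tnnc2, itself at 0 and 97 counts in controls and 306 and 30 in cKO. The lowest raw count of any member was 138, for Gins1 in control replicate 1.

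**Figure D2:**
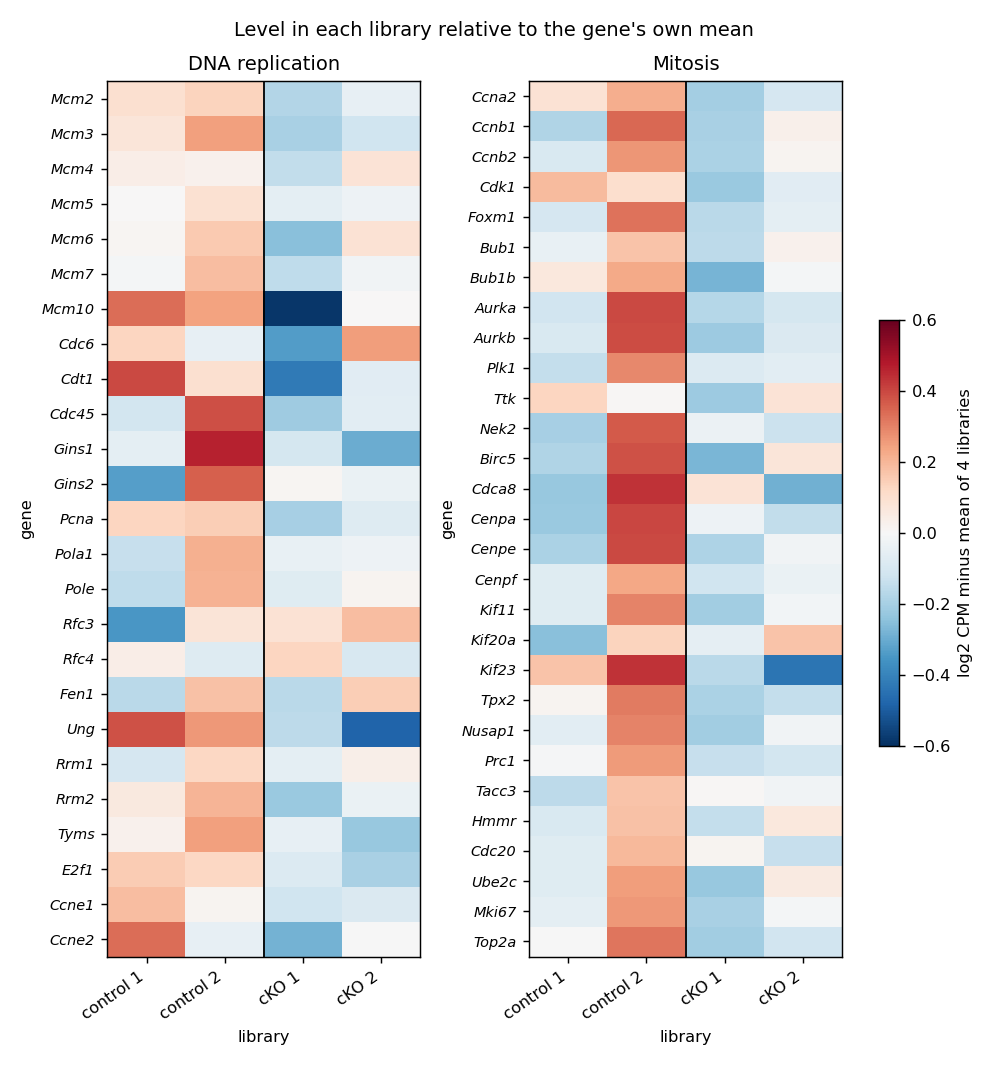
Log2 CPM of each gene in each library minus that gene's mean over the 4 libraries, red above and blue below the mean, with replication genes at left and mitosis genes at right. Control replicate 2 is the highest library for 26 of 29 mitosis genes but for 15 of 25 replication genes.

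The genotype fold changes of the 2 sets had nearly equal medians, so the layout over the libraries was described for each set. No difference between the sets was tested. The 2 controls differ in sex, as given above, and what part this has in the values was not tested. Control replicate 2 was above control replicate 1 for 27 of 29 mitosis genes and 16 of 25 replication genes, against 50.6% of all genes. The median log2 ratio of control replicate 2 over control replicate 1 was 0.33 for mitosis and 0.14 for replication genes. Control replicate 2 was the highest of the 4 libraries for 26 of 29 mitosis and 15 of 25 replication genes, against 26.1% of all genes, and cKO replicate 1 the lowest for 20 and 15, against 20.8%. The median gap between the 2 controls in the mitosis genes was larger than the median difference between genotypes. Among mitosis genes, only Cdk1 and Ttk were higher in control replicate 1 than in control replicate 2. The same held for 9 replication genes, with Ccne2 the furthest, at 12.5 CPM in control replicate 1 and 9.60 in control replicate 2. Within cKO, replicate 2 was above replicate 1 for 23 of 29 mitosis and 19 of 25 replication genes, against 49.9% of all genes, with median log2 ratios of 0.13 and 0.10. The order of the 4 libraries by median deviation was the same for both sets at the top and bottom, control replicate 2 and cKO replicate 1. In between, control replicate 1 was above cKO replicate 2 for replication genes (0.04 and -0.04) and below it for mitosis genes (-0.07 and -0.04).

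**Figure D3:**
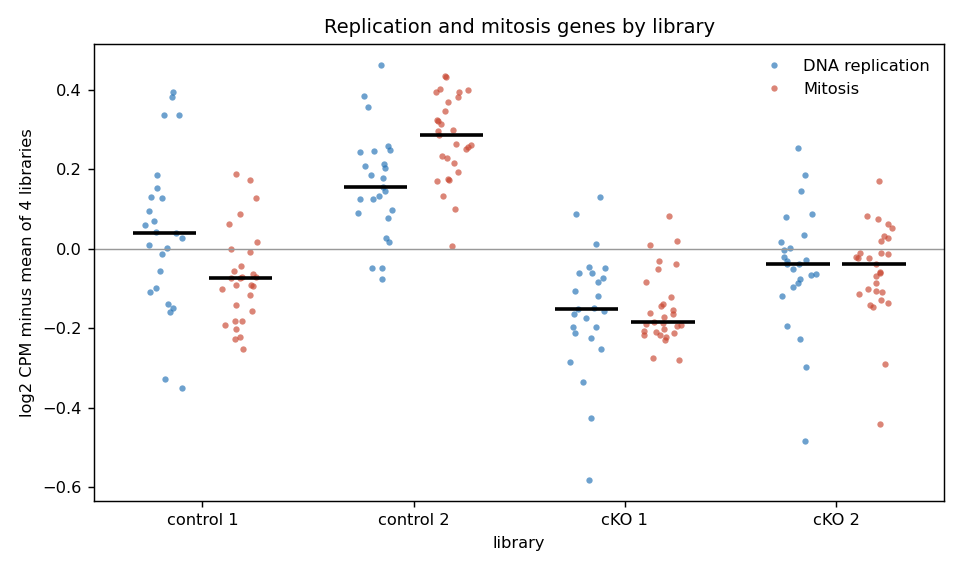
Each point is 1 gene in 1 library, given as log2 CPM minus that gene's mean over the 4 libraries; black bars are medians of 25 replication genes (blue) or 29 mitosis genes (red). In control replicate 1 the replication median is 0.04 and the mitosis median -0.07, and in control replicate 2 they are 0.16 and 0.29.

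Counted gene by gene, both cKO libraries were below both controls for 13 of 25 replication genes (52%) and 7 of 29 mitosis genes (24.1%), where 24.9% of all genes were. The mitosis share was therefore near the background, and the replication share above it. The 1 gene with both cKO libraries above both controls was Rfc3, where 24.9% of all genes had that layout. The 13 replication genes were Mcm2, Mcm3, Mcm5, Mcm7, Mcm10, Cdt1, Gins1, Pcna, Ung, Rrm2, Tyms, E2f1 and Ccne1, and the 7 mitosis genes were Ccna2, Cdk1, Bub1b, Kif23, Tpx2, Prc1 and Top2a. Control replicate 1 alone was above both cKO libraries for 14 of 25 replication genes and 8 of 29 mitosis genes, against 37.3% of all genes. Control replicate 2 alone was above both for 20 of 25 and 27 of 29, against 37.9%. The difference between the shares of the 2 sets was not tested, since genes of a set are not independent.

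**Figure D4:**
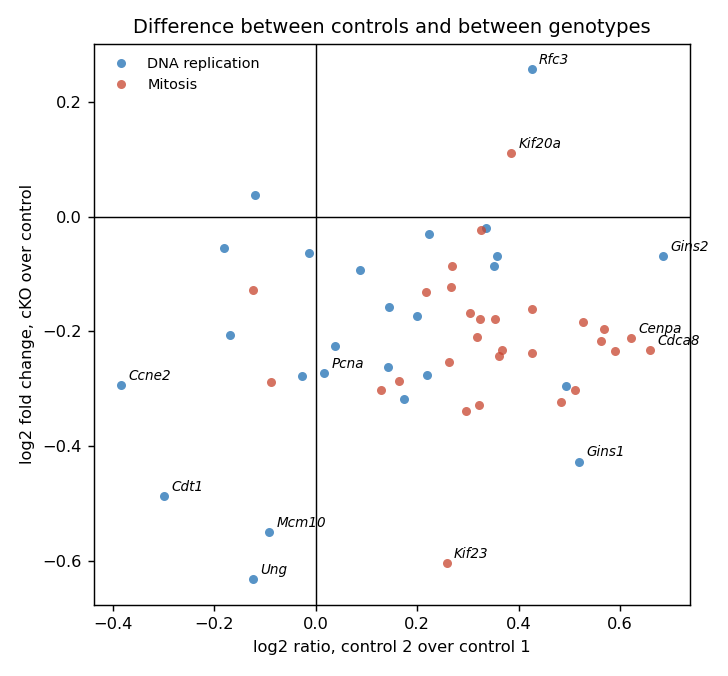
Each point is 1 gene: the horizontal axis is the log2 ratio of control replicate 2 over control replicate 1, and the vertical axis the log2 fold change of cKO over control. Both axes use the control libraries, so no relation between them is read; 27 of 29 mitosis genes lie right of 0, and 16 of 25 replication genes do.

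Leaving out a library moved the median of the mitosis genes over a wider range, -0.38 to -0.0077, than that of the replication genes, -0.25 to -0.14. Without control replicate 2, the mitosis median went from -0.22 to -0.0077, with 17 of 29 below 0 where 48.5% of all genes were, and 2 genes had an unadjusted edgeR p under 0.05 with a lower level, against 5.89% of all genes. The replication median was then -0.14, with 19 of 25 below 0 and 5 such genes. Without control replicate 1, which leaves libraries of 1 sex, the mitosis median was -0.38, with 29 of 29 below 0, against 48.7% of all genes, and 19 lower with an unadjusted edgeR p under 0.05, against 6.67% of all genes. The replication median was -0.25, with 22 of 25 below 0 and 7 such genes. The mitosis median minus the replication median was thus -0.01 with all 4, -0.13 when control replicate 1 was left out and 0.13 when control replicate 2 was. Without cKO replicate 1 or cKO replicate 2 it was 0.0063 and -0.06. Genes lower with an unadjusted edgeR p under 0.05 were then 5 replication and 3 mitosis genes without cKO replicate 1, against 9.37% of all genes, and 8 and 8 without cKO replicate 2, against 6.58%. The log2 fold change stayed within 1.5 times of its value in all 4 fits for 9 members: Mcm2, Mcm3, Pcna, Ung, Rrm2, E2f1, Ccna2, Cdk1 and Kif23. In fits with 1 library left in a group, it is assumed to vary as those of the other group do.

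**Figure D5:**
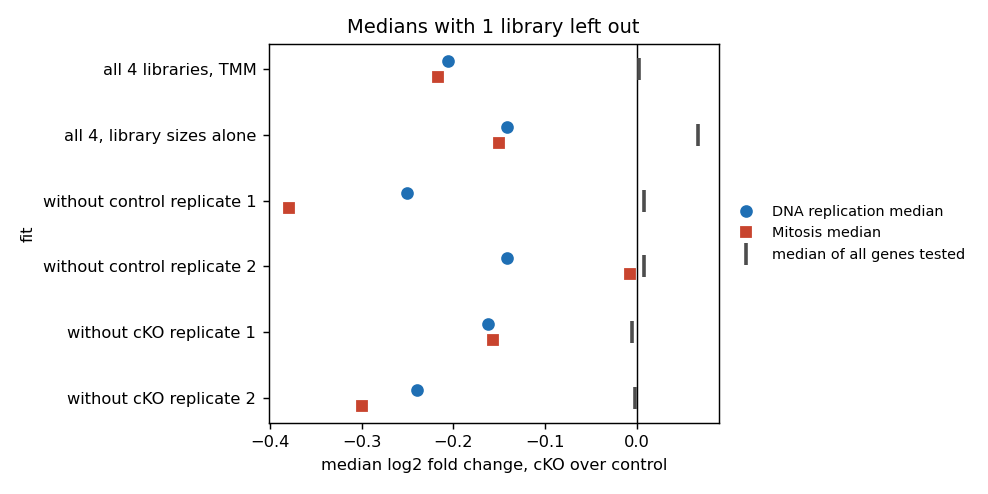
Median log2 fold change of 25 replication genes (circles), 29 mitosis genes (squares) and all genes tested (bars) in 6 edgeR fits. The mitosis median ranges from -0.38 without control replicate 1 to -0.0077 without control replicate 2, and the replication median from -0.25 to -0.14 over the same fits.

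Other genes of both processes gave the same picture of small shifts without calls. The shares of all genes to read these counts against are 8.88% lower and 8.36% higher at an unadjusted p, 49.6% below 0 with TMM and 37.4% with library sizes alone, and by DESeq2 4.58% lower and 3.7% higher. Of 53 other replication genes, edgeR called 0 (8 had an unadjusted p under 0.05 and were lower, 0 higher; DESeq2 called 1 lower, limma-voom 0), 48 were below 0 with TMM and 38 with library sizes alone, and the median log2 fold change was -0.16. Among those with the smallest p were the polymerase subunit Pold1 at -0.37 ± 0.10 and Atad2, an E2F-regulated chromatin ATPase, at -0.23 ± 0.06, at adjusted p-values (edgeR) of 0.14 and 0.14. Of 63 other mitosis genes, edgeR called 0 (10 had an unadjusted p under 0.05 and were lower, 1 higher; DESeq2 called 5 lower and 1 higher, limma-voom 0), 54 were below 0 with TMM and 53 with library sizes alone, and the median was -0.19. The 3 with the smallest p were Psrc1, a spindle protein, at 0.50 ± 0.09, Cdca2, which recruits a phosphatase to chromosomes, at -0.45 ± 0.09, and the condensin subunit Ncapg at -0.42 ± 0.10, at adjusted p-values (edgeR) of 0.068, 0.087 and 0.11.

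The layout over libraries recurred in part in these lists. Control replicate 2 was above control replicate 1 for 57 of 63 other mitosis genes and 36 of 53 other replication genes, against 50.6% of all genes, with median log2 ratios of 0.26 and 0.09. The share of genes with both cKO libraries below both controls did not follow the pattern of the members, at 30 of 63 other mitosis genes (47.6%) and 21 of 53 other replication genes (39.6%), both above the 24.9% of all genes. The higher share among replication than mitosis members was therefore not seen when other genes of the same processes were counted.

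Of 19 genes that brake the cycle, 1 fell by edgeR, where 0.908% of all genes did, and 0 rose, where 0.393% did (2 were lower and 1 higher at an unadjusted p under 0.05). DESeq2 called 2 lower, against 4.58% of all genes, and 1 higher, against 3.7%, and limma-voom called 1 lower, against 1.46%. Btg1, an antiproliferative protein that binds the mRNA deadenylase complex, had 330.2 and 330.3 CPM in controls, against 248 and 222 CPM in cKO and thus fell by 0.49 ± 0.07, as log2, (adjusted p = 0.0411 by edgeR). The adjusted p of Btg1 was 0.16 without control replicate 1, 0.21 without control replicate 2 and 0.0553 without cKO replicate 2. The 19 genes had a median of -0.02, with 10 below 0, so they showed no shared lean beside the 0.00 of all genes.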

How the data were processed

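RNA-seq counts of 4 libraries, 2 control and 2 cKO, were analysed, grouped by the sample labels. The authors deposited 1 table of raw counts per gene symbol. HISAT2 2.2.1, Trim Galore 0.6.7, StringTie 2.1.7, FastQC 0.11.9 and the mm10 build are named, without role or order, per the submitters' processing notes. The sources used here do not say how reads were counted, or with which strand setting and annotation. Genes were kept by filterByExpr (minimum count 10), scaled by TMM and tested by the edgeR 4.0.16 quasi-likelihood test for genotype alone (R 4.3.3), with Benjamini-Hochberg adjustment and a threshold of 0.05. Functions were checked on simulated counts. CPM use TMM-scaled library sizes, except summed markers, which use library sizes. Each SE was taken as the size of the fold change (log2) divided by √F of the test. Exon lengths and overlaps come from GENCODE M21. DESeq2 1.42.0, limma-voom (limma 3.58.1), other scaling, filters and left-out libraries were alternatives. Members and lists were chosen with earlier results of these data known. Values were given in every library for the gene with the most reads and the gene with the lowest p in each role; genes chosen after their values were seen are Ung, Rfc3, Mcm10, Ccnb1, Cdca8 and Ccne2. One gene that the naming rule selects among the other replication genes is not reported here.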

Additional observations from a re-analysis of the deposited data

How the results depend on the processing

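edgeR called 202 of all genes, DESeq2 called 1160, limma-voom 333, edgeR on counts divided by 4 371, and leaving out 1 library gave 5 to 782. DESeq2 called 2 replication genes and 1 mitosis gene, and fits without 1 library called 0 to 1 mitosis genes. The replicate numbers pair no libraries by label, and deviations of same-numbered libraries had r = -0.12 across genes, which are not independent; with the replicate number as a block, edgeR called 23 of all genes and 0 members, the medians were -0.20 and -0.20, and Btg1 had an edgeR adjusted p of 0.0832. Genes lower at an unadjusted p under 0.05 were 4 of the replication set with library sizes alone. Without 1 library they were 5 to 8 of the replication set and 2 to 19 of the mitosis set, the mitosis median was -0.38 to -0.0077, and genes with all cKO libraries below all controls were 14 to 20 and 8 to 27; the lower ends are without control replicate 2, where 37.3% of all genes were so, and the upper ends without control replicate 1, where 37.9% were. With library sizes alone the log2 fold change changed sign for Mcm4 (0.0029), Cdc6 (0.012), Fen1 (0.047), Rrm1 (0.034) and Tacc3 (0.041). Fits without 1 library kept the sign of 32 of 54 members in all 4, of which 23 moved by over 1.5 times in at least 1 fit; the other 22 had these ranges: Mcm4 -0.18 to 0.045, Mcm6 -0.34 to 1.1e-05, Cdc6 -0.38 to 0.21, Gins2 -0.37 to 0.32, Pola1 -0.25 to 0.10, Pole -0.24 to 0.12, Rfc4 -0.082 to 0.15, Fen1 -0.18 to 0.16, Rrm1 -0.14 to 0.086, Ccnb1 -0.42 to 0.10, Ccnb2 -0.34 to 0.0094, Plk1 -0.36 to 0.069, Ttk -0.28 to 0.012, Nek2 -0.45 to 0.12, Birc5 -0.47 to 0.092, Cdca8 -0.52 to 0.14, Cenpa -0.49 to 0.13, Cenpe -0.50 to 0.091, Kif20a -0.069 to 0.32, Tacc3 -0.18 to 0.15, Hmmr -0.21 to 0.055, Cdc20 -0.25 to 0.017. Apart from the sign changes with library sizes alone, no member changed sign under the other scalings, tools and filters run.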
